A study of Mus musculus with 10 samples.

Results

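Open chromatin that lies between, or across, the ends of neighbouring genes was examined in liver tumours of mice with different doses of Arid1a, which encodes a subunit of SWI/SNF (BAF), a complex that moves and evicts nucleosomes. A shared gene-end region was a region of the pooled ATAC-seq peak lists that was called in 2 to 9 of the 10 lists and lay within 1 kb of an end of at least 2 protein-coding genes. There were 1322 such regions among 12266 regions in all (10.8%), and they made up 14.2% of the 9286 regions called in 2 to 9 lists. Peak calls and gene positions chose these regions, and neither the strand of the genes nor the group of a library entered the choice.

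Many mammalian genes lie head to head, with their transcription start sites close together and transcription running outwards on opposite strands. The open stretch between them then serves both genes as a bidirectional promoter, usually rich in CpG and without a TATA box, and genes of DNA repair, mitochondrial function and translation are known to be frequent in such pairs. Other close neighbours lie in tandem, where 1 gene ends just before the next begins, or tail to tail. ATAC-seq reports open chromatin at such places because the transposase Tn5 inserts sequencing adapters where nucleosomes leave the DNA free.

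The tumours arose in FVB mice in which a tetracycline transactivator under the liver promoter LAP drove a TRE-MYC transgene after doxycycline was withdrawn, and all groups carried both transgenes. Homo tumours (n = 3 libraries, about 100 days old) were Arid1a fl/fl with Alb-cre, Het tumours (n = 3, about 70 days) were Arid1a fl/+ with Alb-cre, and WT tumours (n = 4, about 55 days) were Arid1a fl/fl without Cre. The albumin promoter drives Cre in cells of the hepatocyte lineage and not in the other cells of a tumour, and the tissue was taken when the animals died. Age and the presence of Cre ran with genotype and cannot be told apart from it, and the labels do not say that each library came from a separate mouse, so a p-value reflects the spread among libraries, which may be technical. In bulk tissue, fewer cells with an open region and a less open region in each cell cannot be told apart.

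The lists held 1748 to 9587 regions in Homo, 2583 to 5796 in Het and 6731 to 9526 in WT libraries on autosomes and X. Depth, recovered from the lists as background tags per window of the peak caller, was 0.464 to 1.608 in Homo, 0.655 to 0.738 in Het and 0.985 to 1.745 in WT libraries. Each Het library was thus shallower than each WT library, while Homo depths ran from below the Het range into the WT range. Depth went with the number of calls only in part, as Homo 1 had a depth of 0.914 and 3863 regions, and Het 1 0.696 and 5796. A peak inside Arid1a, at chr4:133754054-133754577 of mm10, was called in 1 of 3 Homo, 2 of 3 Het and 4 of 4 WT libraries, and the sources used here do not place it relative to the floxed exons, so it does not check the deletion. Of 11 hepatocyte marker genes, 0 to 5 had a gene-end peak in Homo, 1 in each Het and 1 to 6 in WT libraries, and Cebpa, a liver transcription factor, had one in 9 of 10 libraries while Hnf4a, Foxa2, Cps1 and Serpina1a had none. No endothelial, stellate, lymphocyte or erythroid marker had a gene-end peak in any library, Epcam of the cholangiocyte list had one in WT 3 and WT 4, and Spi1 of the macrophage list in Homo 3. No marker gene lay at a shared gene-end region.

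Promoter windows of 6 regions are printed because the regions over them carry the main patterns of the lists, each from 250 bases before to 50 bases after a RefSeq gene start on GRCm38.p6, whose chromosome coordinates are those of mm10. The first belongs to the strongest region called in all WT and no Homo libraries, the second to a region that was called in WT libraries alone, the third to the strongest region called in all WT and no Het libraries, and the last 3 to divergent pairs with the highest peaks. The Tyw5 window was added after its values had been seen. Capitals mark matches, on either strand, to the 10 motifs counted below for whole sets of promoters.
Rpp14 start, at the Htd2/Rpp14 region, chr14:8080063-8080362, plus strand: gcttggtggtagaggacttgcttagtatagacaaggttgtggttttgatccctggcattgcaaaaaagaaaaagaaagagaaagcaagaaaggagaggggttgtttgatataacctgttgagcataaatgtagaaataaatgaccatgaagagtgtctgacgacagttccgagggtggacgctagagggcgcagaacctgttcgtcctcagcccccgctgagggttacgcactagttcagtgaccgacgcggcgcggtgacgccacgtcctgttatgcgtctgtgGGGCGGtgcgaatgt
Tyw5 start, at the Tyw5/Maip1 region, chr1:57406625-57406924, minus strand: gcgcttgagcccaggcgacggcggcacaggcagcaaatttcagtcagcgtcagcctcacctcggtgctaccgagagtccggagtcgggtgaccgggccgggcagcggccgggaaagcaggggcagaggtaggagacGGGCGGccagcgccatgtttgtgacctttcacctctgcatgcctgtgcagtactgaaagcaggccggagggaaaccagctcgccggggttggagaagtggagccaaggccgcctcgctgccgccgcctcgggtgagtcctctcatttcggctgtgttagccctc
Ubn1 start, at the Glyr1/Ubn1 region, chr16:5049807-5050106, plus strand: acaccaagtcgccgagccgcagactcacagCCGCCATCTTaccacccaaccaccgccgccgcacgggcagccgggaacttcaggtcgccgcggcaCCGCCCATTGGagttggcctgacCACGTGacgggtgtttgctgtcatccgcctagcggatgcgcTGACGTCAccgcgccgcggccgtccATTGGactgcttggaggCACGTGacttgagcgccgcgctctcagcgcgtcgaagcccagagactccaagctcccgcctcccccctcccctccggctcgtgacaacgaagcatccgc
Dcun1d3 start, at the Dcun1d3/Lyrm1 region, chr7:119895696-119895995, minus strand: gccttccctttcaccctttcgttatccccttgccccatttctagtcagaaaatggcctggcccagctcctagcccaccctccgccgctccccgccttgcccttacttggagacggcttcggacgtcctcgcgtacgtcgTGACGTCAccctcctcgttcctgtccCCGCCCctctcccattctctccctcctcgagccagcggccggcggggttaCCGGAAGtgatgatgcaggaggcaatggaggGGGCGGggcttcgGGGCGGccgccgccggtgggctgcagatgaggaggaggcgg
Gpn3 start, at the Fam216a/Gpn3 region, chr5:122372258-122372557, plus strand: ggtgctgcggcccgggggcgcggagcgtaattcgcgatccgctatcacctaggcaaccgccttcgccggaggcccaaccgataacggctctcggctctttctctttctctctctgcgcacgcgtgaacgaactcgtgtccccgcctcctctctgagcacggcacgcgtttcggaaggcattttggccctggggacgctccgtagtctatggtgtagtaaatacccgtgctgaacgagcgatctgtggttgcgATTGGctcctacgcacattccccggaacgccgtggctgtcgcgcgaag
Gmpr2 start, at the Nedd8/Gmpr2 region, chr14:55671985-55672284, plus strand: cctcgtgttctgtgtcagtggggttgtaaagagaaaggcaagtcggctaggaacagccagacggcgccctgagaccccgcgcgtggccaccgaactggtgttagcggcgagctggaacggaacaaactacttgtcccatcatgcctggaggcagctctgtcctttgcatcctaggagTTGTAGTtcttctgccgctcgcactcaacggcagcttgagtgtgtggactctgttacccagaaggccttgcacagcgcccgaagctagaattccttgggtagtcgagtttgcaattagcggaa

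The Rpp14 and Tyw5 windows each held a single match, a GC box (GGGCGG). The Ubn1 window held 7 matches, with the E-box CACGTG at 2 places, CCAAT boxes at 2 places, a GC box, the CRE motif TGACGTCA and the YY1 motif near its 5′ edge. The GC box and the first CCAAT box of that window adjoin on the minus strand. The Dcun1d3 window held 5 matches, among them the ETS motif CCGGAAG, a CRE and 3 GC boxes. It lies at a start inside Dcun1d3, and not at the gene end at chr7:119896330 by which the pair was defined. It also spans the start of Lyrm1 at 119895713. The Gpn3 window held a CCAAT box, and the Gmpr2 window held the motif of THAP11 and ZNF143, ACTACAA. A match describes the letters of a window and not a bound factor.

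Most shared gene-end regions lay at head-to-head genes. The median region was 594 bp wide, from 228 to 1645 bp, and the ends of its genes lay a median of 189 bp apart. Of the 1322 regions, 1290 joined 2 genes and 32 joined 3, and none joined 4. They covered 2541 distinct genes in 1286 sets, 36 of which had 2 regions, and at 388 regions the 2 genes overlap each other. Strand could be read from the RefSeq promoter table for the pairs of 981 regions and not for those of 309 others. Of the 981, 732 (74.6%) were divergent, with both starts at the region, 213 (21.7%) were tandem, with the end of 1 gene beside the start of the next, and 2 were convergent. The remaining regions with strand read were 19 of a common strand with both starts at the region, 14 on opposite strands with a start beside an end, and 1 with both 3′ ends.

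Closely spaced genes in general, with or without a peak, had another mix of orientations. Among shared gene-end regions whose 2 genes had facing ends 1 to 1000 bp apart, 473 of 644 (73.4%) were divergent, 169 (26.2%) tandem and 2 (0.311%) convergent. Among all neighbouring pairs of the gene table with that spacing and a strand read, 548 of 1405 (39.0%) were divergent, 441 (31.4%) tandem and 416 (29.6%) convergent. The convergent pairs at shared regions were Duox1/Shf, with a hydrogen peroxide-producing oxidase and an SH2 adaptor, and Hrc/Ppfia3, with a calcium-binding protein of muscle and a liprin scaffold. These shares are descriptions, since neighbouring pairs are not replicates. The first set was chosen by peaks and the pairs of the gene table were not. Divergent pairs have 2 starts and convergent pairs none, and what the choice by peaks adds to the gap was not tested. A pair with 2 regions was counted at each of them.

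**Figure D1:**
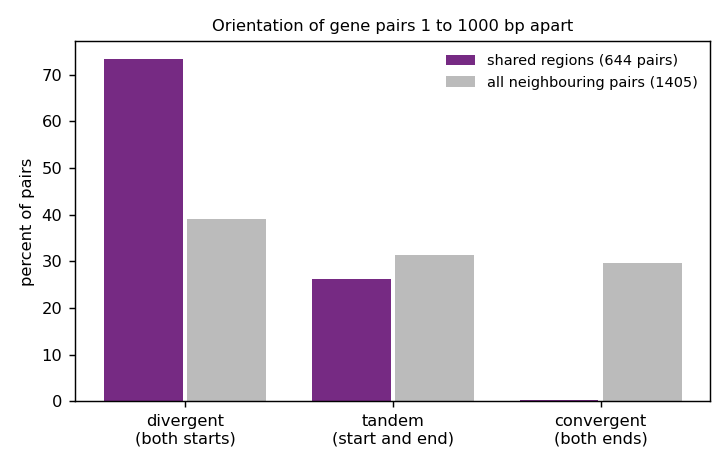
Orientation of gene pairs whose facing ends lie 1 to 1000 bp apart. Bars are percent of the 644 shared gene-end regions with such a pair (purple) and of the 1405 neighbouring pairs of the gene table (grey). The purple set was chosen by peaks and the grey one was not. Divergent pairs make up 73.4% of the purple set and 39.0% of the grey one, and convergent pairs 0.311% and 29.6%.

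Divergent and tandem regions differed in spacing, shape and recurrence. The starts of divergent genes lay a median of 136.5 bp apart, with a middle range of 57.75 to 309.5 bp, and 557 of 732 regions (76.1%) covered both starts. The ends of tandem genes lay a median of 513 bp apart (230 to 817 bp), and 33 of 213 regions (15.5%) covered both. Divergent regions had a median width of 618 bp and tandem regions of 530 bp. The median fold, the deposited ratio of summit pileup to local background, was 6.58 in divergent and 6.35 in tandem regions. Divergent regions were called in a median of 7 lists, with 56.4% in 7 to 9 lists, and tandem regions in a median of 6, with 39.0% in 7 to 9. Each library called a larger percent of the divergent than of the tandem regions except Homo 2, which called 14.1% of the divergent and 15.0% of the tandem.

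**Figure D2:**
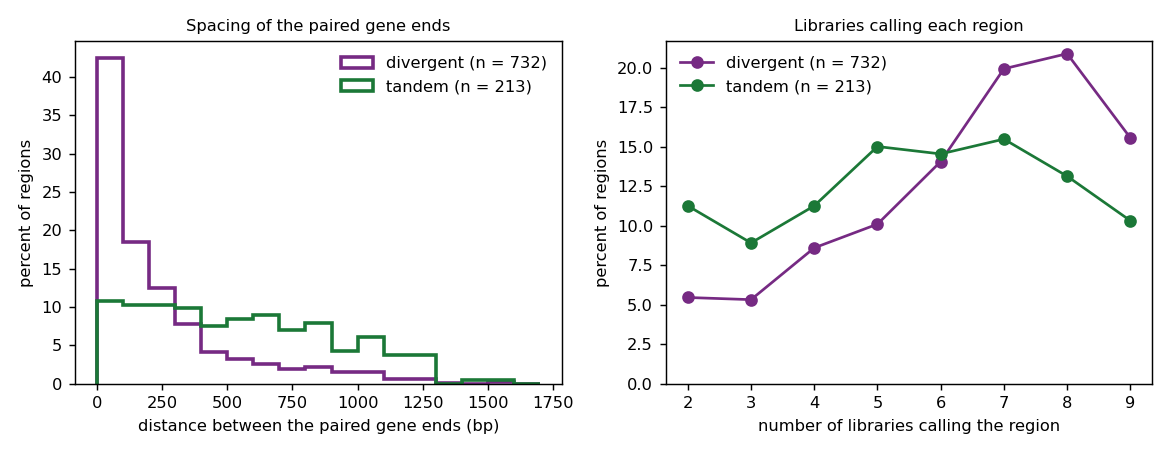
Left, distance in bp between the paired gene ends, in bins of 100 bp, as percent of the 732 divergent (purple) and 213 tandem (green) regions, and right, the number of libraries calling each region. Divergent starts crowd below 100 bp and divergent regions peak at 8 libraries, while tandem ends spread more widely and their regions over 2 to 9 libraries. The longest distance is 1546 bp in divergent and 1525 bp in tandem pairs.

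Among regions called in 2 to 9 lists, those at shared gene ends were called in more libraries than others, by the calls that also chose them. Their median was 7 lists, against 6 for the 5610 recurrent regions at the end of 1 gene, 4 for the 1438 in gene bodies and 4 for the 916 intergenic ones. Of shared regions 50.5% were in 7 to 9 lists, against 42.3% at single ends, 26.6% in gene bodies and 18.6% of intergenic regions. Left out were regions in all 10 lists: 86 of 1541 at shared ends, 317 of 6801 at single ends, 94 of 2241 in gene bodies and 150 of 1683 intergenic. Also left out were 133, 874, 709 and 617 regions in 1 list. Shared regions were wider, at a median of 594 bp against 545, 460 and 389 bp, and the part of width was not tested. Their median fold of 6.48 equalled that at single gene ends and stood above 6.25 in gene bodies and 6.27 in intergenic regions. Within a list, the median shared region ranked higher by −log10 p than the median single-end region in 9 of 10 libraries, by 3.56 and 5.72 percentile points in Homo 2 and Homo 3, 0.932 to 4.78 in Het and 3.30 to 4.94 in WT libraries. Homo 1 had the opposite order, at −3.16 points.

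The rule has bounds on both sides. Regions in exactly 2 lists (97) had a median fold of 5.32 and a width of 339 bp, against 5.20 and 255 bp for the 133 gene-pair regions in 1 list. Regions in 9 lists (181) had a median fold of 7.09 and a width of 722 bp, against 7.44 and 737 bp for the 86 in all 10. Where the second gene end lay in the last 100 bp of the 1 kb window the median fold was 6.27 over 36 regions, against 6.49 over the 38 regions with that end in the first 100 bp outside it. Median rank percentiles inside and outside were 19.3 and 14.2 at the lower bound on lists, 70.8 and 77.6 at the upper one, and 36.6 and 46.5 at the edge of the window. At that edge the median width was 536 bp inside and 464 bp outside.

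Promoter windows at divergent regions were CpG-rich and often held the ETS motif. One 300-base window was taken for each region, giving 717 at divergent regions, and was set beside 4180 windows at recurrent regions of a single gene end and all 32619 windows of the table. The ETS motif CCGGAAG, the core bound by ETS family activators such as GABPA, was in 30.8% of divergent windows, 20.6% of single-end windows and 8.92% of all windows. It was in 30.6% of the 206 windows taken in the same way at tandem regions. The YY1 motif was in 4.60%, 2.63% and 0.85% of the divergent, single-end and all windows, and ACTACAA of THAP11 and ZNF143 in 6.83%, 4.78% and 3.26%.

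Among the other motifs, TATAAA and the GC box were less frequent at divergent regions than at single ends. The E-box CACGTG, which MYC and MAX bind, was in 12.1% of divergent windows, 12.1% of single-end windows and 7.20% of all windows. The GC box GGGCGG of SP factors was in 73.1%, 76.8% and 35.9%, CCAAT of NF-Y in 43.2%, 41.9% and 37.6%, the CRE TGACGTCA in 4.46%, 4.04% and 1.80%, and the palindrome of NRF1 in 3.07%, 2.92% and 0.98%. The AP-1 motif TGANTCA was in 3.49% of divergent, 3.28% of single-end and 7.85% of all windows, and TATAAA in 3.49%, 5.26% and 13.7%. The median ratio of observed to expected CpG was 0.875 at divergent regions, 0.828 at single ends and 0.387 over all windows, while GC content was 63.3% in both sets of regions and 53.0% over all. Motifs were sought on both strands and each was counted on its own, so letters that overlap 2 motifs count for both.

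**Figure D3:**
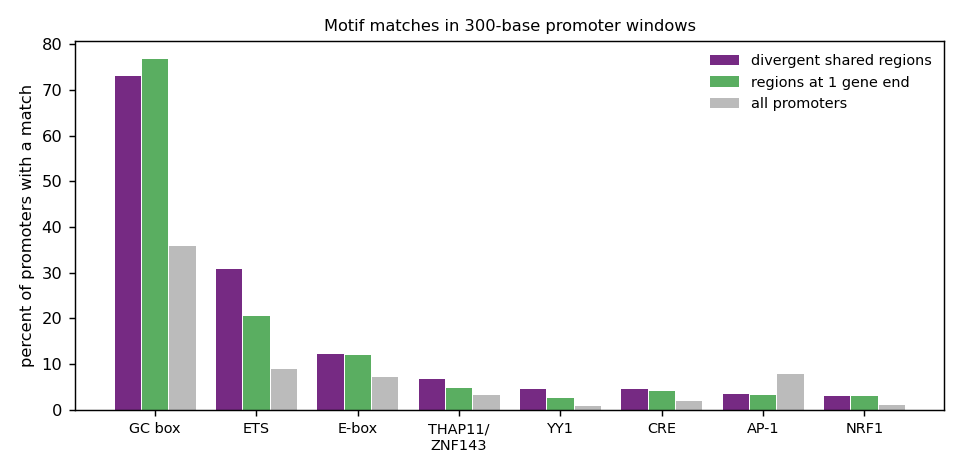
Percent of 300-base promoter windows with a match to 8 of the motifs, at divergent shared gene-end regions (purple, 717), at recurrent regions of 1 gene end (green, 4180) and in the whole table (grey, 32619). ETS is the motif with the widest gap between purple and green bars, 30.8% against 20.6%, while E-box bars are both at 12.1%.

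The number of shared regions called varied widely within Homo and within Het tumours. Homo 1, 2 and 3 called 487, 176 and 1247, Het 1, 2 and 3 called 813, 693 and 293, and WT 1, 2, 3 and 4 called 1213, 1115, 954 and 1141. Homo 3 had the highest count of all and Homo 2 the lowest, so the Homo libraries spanned the WT range, while each Het library lay below each WT library. The mean was 637 ± 551 in Homo (SD, n = 3), 600 ± 272 in Het (n = 3) and 1106 ± 109 in WT (n = 4). Homo minus WT was −469 regions (two-sided exact permutation of the group labels, p = 0.2, Benjamini-Hochberg adjusted over 3 comparisons p = 0.3). Het minus WT was −506 regions (exact p = 0.0286, the smallest that 35 splits allow, adjusted p = 0.0857). Homo minus Het was 37 regions (exact p = 1), a sign that turned to −268 without Homo 3 and to −116 without Het 3. None of the 3 differences passed 0.05 after adjustment. The calls counted here, and in the shares below, also chose the regions, though without use of the groups. The tests thus give no support that is independent of that choice.

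Depth ran with these counts in part, with exceptions within and between groups. Het 3 had the highest depth of the Het libraries, 0.738, and the lowest count, 293, while Het 1 had a depth of 0.696 and a count of 813. Homo 1, at a depth of 0.914, had a count of 487, below Het 1 and Het 2. After all lists were thinned to the depth of Homo 2, the counts were 329, 176 and 792 in Homo 1, 2 and 3, 737, 626 and 228 in Het 1, 2 and 3, and 657, 811, 706 and 693 in WT 1 to 4. The Het and WT ranges overlapped on that scale, and Het minus WT was −186 (exact p = 0.229). Among the 1748 strongest peaks of each list, Het libraries called 182 to 245 shared regions and WT libraries 246 to 259. Het minus WT was −37.8 there (exact p = 0.0286, adjusted p = 0.0857). The part of depth in the differences at full depth was not tested further.

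The share that shared regions took of a library's recurrent regions was close to even. It was 16.2%, 16.7% and 15.3% in Homo 1, 2 and 3, 16.5%, 17.9% and 15.8% in Het 1, 2 and 3, and 15.0%, 15.4%, 16.7% and 15.7% in WT 1 to 4. The 3 groups overlapped, at 16.1% ± 0.706 in Homo (SD, n = 3), 16.7% ± 1.09 in Het (n = 3) and 15.7% ± 0.736 in WT (n = 4). The differences were 0.359 points for Homo minus WT (exact p = 0.514), 1.02 for Het minus WT (exact p = 0.2) and −0.662 for Homo minus Het (exact p = 0.5), each with an adjusted p of 0.514.

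**Figure D4:**
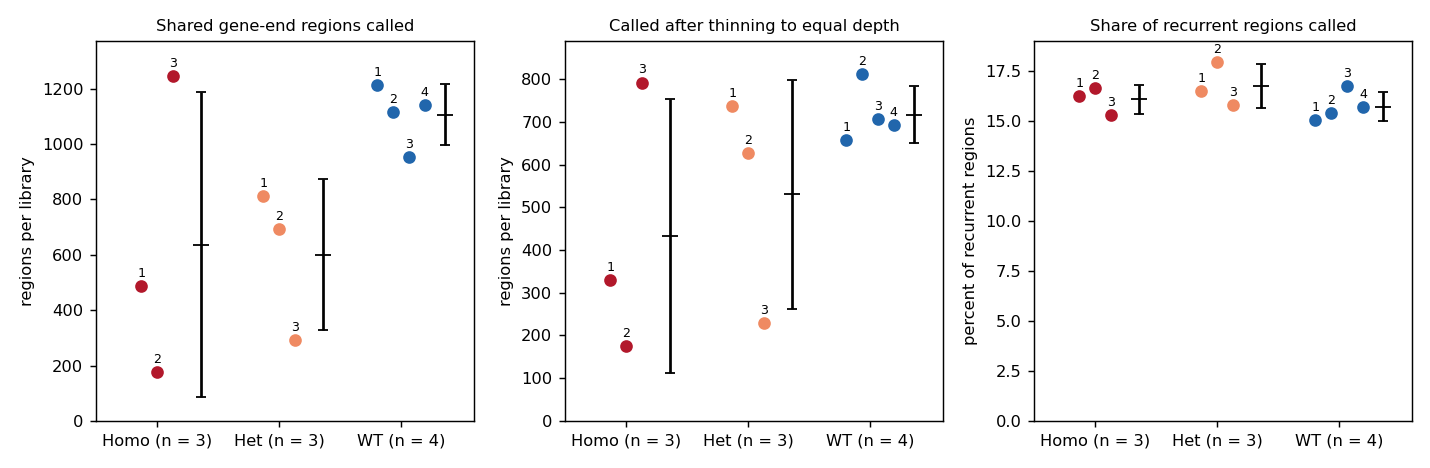
Shared gene-end regions called in each library (left), the same after thinning to the depth of Homo 2 (middle), and their percent of the recurrent regions the library calls (right), as numbered points by group with mean and SD at the side. Counts run from 176 to 1247 regions within Homo, while the percent stays between 15.0 and 17.9 in the 10 libraries.

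Most shared regions that WT tumours held were found again in at least 1 tumour with Cre. Of the 1322 regions, 91 were called in all 3 Homo, 187 in all 3 Het and 821 in all 4 WT libraries, and 49 were called in no Homo, 341 in no Het and 12 in no WT library. Homo 1, 2 and 3 held 46.3%, 16.8% and 99.0% of the 821, and Het 1, 2 and 3 held 79.3%, 67.5% and 29.2%. Over all recurrent regions found in all WT libraries the same libraries held 45.9%, 16.3% and 98.0%, and 76.7%, 64.2% and 30.9%. The shared regions were thus held at about the rate of other regions of the same library.

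A call in all WT and no Homo library was found for 4 shared regions (0.303%), beside 0.377% of all 9286 recurrent regions. That share is near the background and describes these 4 regions, among them Htd2/Rpp14, Tyw5/Maip1 and Rpl36/Lonp1. The count rests on single libraries: leaving out Homo 3 gave 380, leaving out Homo 1 or WT 1 gave 8 each, leaving out WT 2 gave 7 and leaving out WT 3 gave 10. All 4 were weak to moderate peaks, with a median rank percentile in WT libraries between 30.2 and 45.6. A region with no call may still be open below the threshold of the peak caller. Folds below are as deposited and were not rescaled between libraries. The median fold of the shared regions a library called was 5.91, 6.10 and 7.28 in Homo 1 to 3. It was 6.80, 6.38 and 5.83 in Het 1 to 3, and 6.62, 6.81, 6.34 and 6.55 in WT 1 to 4. A difference in fold at a single region was not separated from such a library-wide difference.

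The Htd2/Rpp14 region (chr14:8080201-8080648) covers the common start of a single transcription unit on the plus strand, with Rpp14, a subunit of RNase P, and Htd2, an enzyme of mitochondrial fatty acid synthesis. It had no call in the 3 Homo libraries, folds of 5.21 and 6.55 in Het 1 and Het 2 with none in Het 3, and folds of 6.33, 6.72, 6.56 and 6.92 in WT 1 to 4. The 4 WT folds lay close together and 1 of the 2 Het folds fell within their range. Its genes share a start, so the region joins 2 annotated genes with no distance between them. At equal depth it was called in no Homo, 1 Het and 1 WT library, and among the strongest peaks in equal number it was called in none.

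The Tyw5/Maip1 region (chr1:57406416-57407029) lies at a divergent pair of overlapping genes whose starts are 408 bp apart, over the start of Tyw5 and 150 bp from that of Maip1. Tyw5 hydroxylates a modified base of phenylalanine tRNA, and Maip1 is a mitochondrial matrix protein. It was called in no Homo and no Het library, and had folds of 5.84, 6.72, 7.79 and 4.78 in WT 1 to 4. WT 3, the shallowest WT library, had the highest fold and WT 4 the lowest. At equal depth 2 of the 4 WT libraries still called it.

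The Rpl36/Lonp1 region (chr17:56613273-56613553) also had a call in no Homo and no Het library. It lies inside Rpl36, a protein of the large ribosomal subunit, 693 bp from the end of that gene and 744 bp from Lonp1, the Lon protease of mitochondria. Its folds were 4.36, 4.70, 5.81 and 5.65 in WT 1 to 4, all of them below the median of 6.48 over all shared regions, and 2 of the 4 WT libraries still called it at equal depth.

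Shared regions with calls in all WT and no Het or Homo library were Tyw5/Maip1 and Rpl36/Lonp1, 2 of 1322 (0.151%), beside 0.172% of all recurrent regions. Without Homo 3 the count was 61, and without WT 3 it was 4. No shared region was called in all Homo and no WT library, beside 0.0215% of recurrent regions, and none in all Het and no WT library, beside 0.0108%. The first of these counts was 1 without Homo 1 and 4 without Homo 2, and the second was 1 without Het 3.

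The pattern with the most shared regions was a call in all WT and no Het library, with 81 (6.13%) beside 5.36% of all recurrent regions and 5.79% of those at a single gene end. The share is near the background, so the pattern is not particular to shared ends. Of the 81, 55 were divergent and 9 tandem, beside 732 and 213 of all 1322. Homo 3 called 79 of the 81, beside 99.0% of the 821 shared regions called in all WT libraries. For 59 of the 81 only 1 Homo library had a call. The number was 210 without Het 1, 143 without Het 2 and 143 without WT 3. At equal depth, 12 of the 81 were still called in all 4 WT libraries, 25 in 3, 27 in 2, 15 in 1 and 2 in none.

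The strongest by rank was the Glyr1/Ubn1 region (chr16:5049525-5050356), between the starts of Glyr1, a nucleosome-binding cofactor, and Ubn1, which works with the histone chaperone HIRA, 119 bp apart. Its folds were 5.19 in Homo 1 and 8.29 in Homo 3, with none in Homo 2 or in any Het library, and 8.37, 7.27, 6.21 and 9.94 in WT 1 to 4. Homo 3 lay within the WT range and Homo 1 below it. At equal depth it was still called in 2 Homo, no Het and 4 WT libraries.

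The Dcun1d3/Lyrm1 region (chr7:119895617-119896319) lies at the starts of Dcun1d3, a factor of cullin neddylation, and Lyrm1, a LYR motif protein. It had a fold of 10.99 in Homo 3, no call in the other Homo and the Het libraries, and folds of 9.36, 11.1, 5.65 and 7.19 in WT 1 to 4. With a median fold of 9.36 it was also among the 8 highest peaks of all shared regions. The Fbl/Dyrk1b region (chr7:28179735-28180246) lies in Dyrk1b, a protein kinase gene, beside Fbl, the methyltransferase fibrillarin of the nucleolus. It had a fold of 6.46 in Homo 3 alone among Homo libraries, no call in Het libraries, and folds of 8.56, 7.57, 6.42 and 7.83 in WT 1 to 4. At equal depth 4 WT libraries still called each, with 1 Homo library at Dcun1d3/Lyrm1 and none at Fbl/Dyrk1b.

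The other 5 regions named for the pattern were all called in Homo 3 and had WT folds between 6.02 and 10.4. Hspa14/Cdnf, with an Hsp70 family chaperone and a neurotrophic factor of the endoplasmic reticulum, had folds of 6.58 in Homo 1 and 11.1 in Homo 3, against 10.4, 8.06, 6.61 and 8.10 in WT 1 to 4. Snap47/Jmjd4, with a SNARE protein and a JmjC hydroxylase, had 7.14 in Homo 3, against 7.99, 8.53, 8.33 and 7.50 in WT 1 to 4. Ift80/Smc4, with a ciliary transport protein and a condensin subunit, had 7.05 in Homo 3, against 7.88, 7.87, 6.69 and 7.06 in WT 1 to 4. Homo 3 exceeded each WT library at Hspa14/Cdnf, was below each at Snap47/Jmjd4 and lay within their range at Ift80/Smc4. Cyhr1/Kifc2, beside a kinesin gene, and Ccni/2010109A12Rik, beside cyclin I, completed the group. At equal depth each of the 5 was called in 3 or 4 WT libraries.

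**Figure D5:**
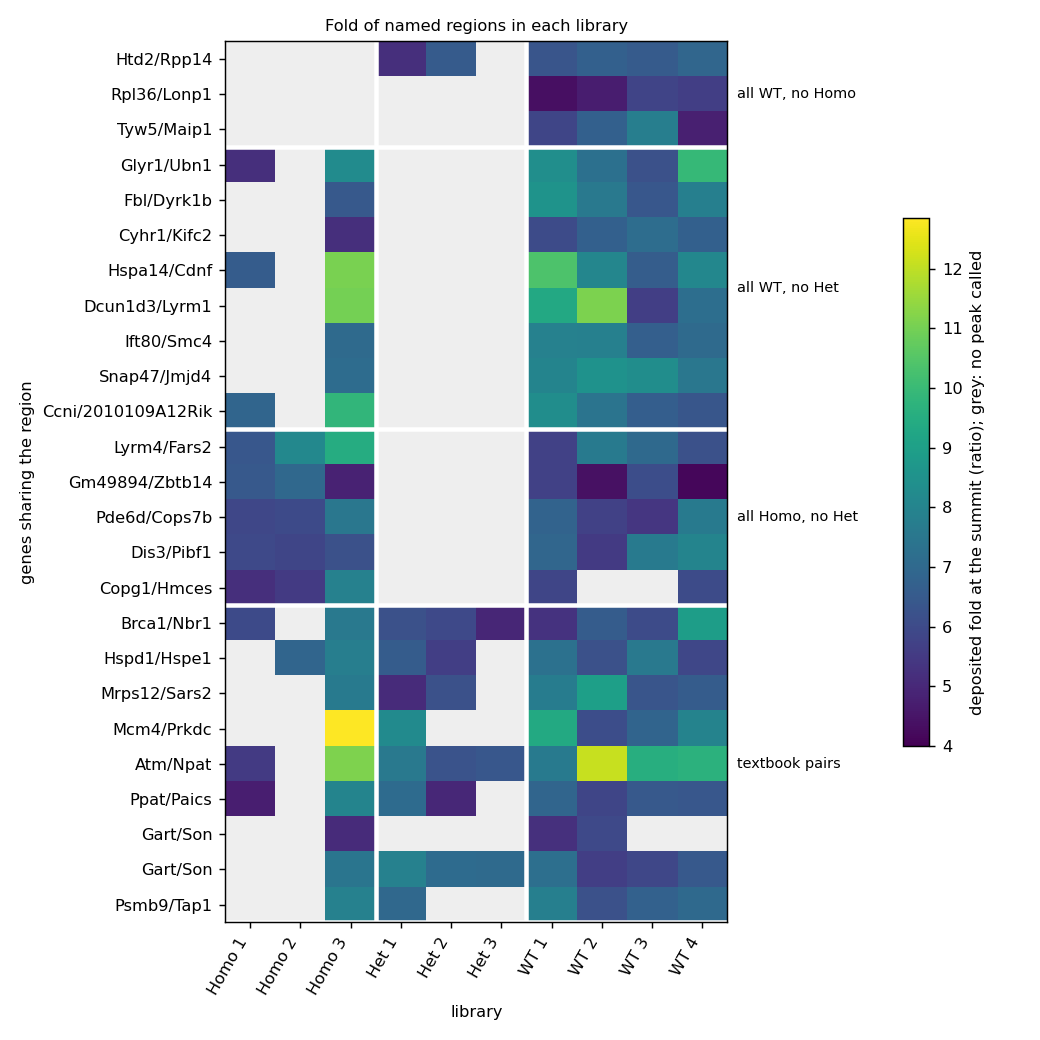
Deposited fold at the summit (colour, a ratio) of named shared gene-end regions in each of the 10 libraries, grey where no peak was called, grouped by pattern and with textbook bidirectional pairs last. The Het columns are grey for the middle 2 patterns by their definition, Homo 3 is filled in most rows, and Homo 2 is filled in 6 of the 25.

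A call in all Homo and no Het library was found for 5 shared regions (0.378%), beside 0.345% of all recurrent regions. The number was 14 without Homo 1, 47 without Homo 2, 17 without Het 1 and 11 without Het 2. No shared region showed the opposite, a call in all Het and no Homo library, beside 0.0862% of recurrent regions, and that count was 51 without Homo 3 and 4 without Het 3. All 5 were also called in at least 2 WT libraries.

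The strongest of the 5 was Lyrm4/Fars2 (chr13:36117295-36118016), between Lyrm4, which helps assemble iron-sulfur clusters as ISD11, and Fars2, the mitochondrial phenylalanine tRNA synthetase, whose starts lie 71 bp apart. It had folds of 6.41, 8.14 and 9.48 in Homo 1 to 3, no call in Het libraries, and folds of 5.73, 7.64, 7.03 and 6.21 in WT 1 to 4. Homo and WT values overlapped, and Homo 3 was the highest. It was still called in 3 Homo, no Het and 3 WT libraries at equal depth.

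Dis3/Pibf1 (chr14:99099357-99100054), with the exosome ribonuclease Dis3 and the centrosomal protein Pibf1, had folds of 5.94, 5.84 and 6.18 in Homo 1 to 3, against 6.93, 5.51, 7.61 and 7.99 in WT 1 to 4. Pde6d/Cops7b (chr1:86582328-86582968), with a carrier of prenylated proteins and a COP9 signalosome subunit, had 5.88, 6.0 and 7.50 in Homo 1 to 3, against 6.83, 5.71, 5.38 and 7.60 in WT 1 to 4. The groups overlapped in both. Gm49894/Zbtb14, with a predicted gene and a zinc finger transcription factor, had 6.47, 6.99 and 4.85 in Homo 1 to 3, against 5.71, 4.40, 6.08 and 4.17 in WT 1 to 4. Copg1/Hmces, a tandem pair of a COPI coat subunit and a protein that shields abasic sites, had 5.20, 5.49 and 7.88 in Homo 1 to 3, and was called in WT 1 and WT 4 alone among WT libraries, with 5.84 and 6.01. In WT lists Gm49894/Zbtb14 and Copg1/Hmces were weak peaks, at median rank percentiles of 23.8 and 30.4. At equal depth both were called in 2 of 3 Homo libraries, and Dis3/Pibf1 and Pde6d/Cops7b in 3.

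Among the highest peaks of shared regions, Fam216a/Gpn3 and Nedd8/Gmpr2 were called in every group. Fam216a/Gpn3 (chr5:122371963-122372655), whose starts lie 166 bp apart and of which Gpn3 helps bring RNA polymerase II into the nucleus, had folds of 5.43, 10.8 and 9.61 in Homo 1 to 3, 11.4 in Het 1 and 6.52 in Het 3, and 9.59, 10.1, 7.72 and 10.4 in WT 1 to 4. Nedd8/Gmpr2 (chr14:55671943-55672390), with the ubiquitin-like modifier Nedd8 and a GMP reductase, had 9.77 in Homo 1, 9.05 and 9.38 in Het 1 and Het 2, and 10.2, 5.16, 6.60 and 10.3 in WT 1 to 4. The groups overlapped in both regions, and each had at least 1 library without a call. The tandem pair Chrnb1/Fgf11 had the highest median fold, 9.63 over 8 libraries, and others among the 8 highest were Fam216a/Gpn3 (9.61), Gspt1/LOC115488671 (9.48), Nedd8/Gmpr2 (9.38), Dcun1d3/Lyrm1 (9.36), Cfap298/Synj1 (9.20) and Prc1/Rccd1 (9.17). These include Gspt1, the termination factor eRF3a, and Prc1, which bundles microtubules in cytokinesis. The widest region, Zfp91/Lpxn at 1645 bp, had a median fold of 6.34, and Fiz1/Zfp524, LOC108167694/Gm20783, AB124611/Carm1 and Wbp4/Elf1 followed with 4.40 to 6.25.

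Pairs long known to share a promoter meet the rule's demand for close gene ends by their nature, so their number is a description of the set. Of 25 genes of such pairs in the table, 18 lay at a shared region, in 9 pairs and 10 regions. All 4 WT libraries called 9 of the 10 regions, and the mean percent of these regions called was 46.7% in Homo, 63.3% in Het and 95% in WT libraries, beside 48.2%, 45.4% and 83.6% for all shared regions. Atm/Npat (chr9:53536597-53537333), with the DNA damage kinase Atm and the histone gene activator Npat 61 bp apart, had folds of 5.50 and 11.1 in Homo 1 and Homo 3, 7.58, 6.25 and 6.41 in Het 1 to 3, and 7.60, 12.1, 9.54 and 9.71 in WT 1 to 4. Each Het value lay below each WT value, though 7.58 in Het 1 was close to 7.60 in WT 1. Homo 1 lay below each Het value, while Homo 3 was inside the WT range.

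Brca1/Nbr1 (chr11:101551853-101552961), with the homologous recombination gene Brca1 and the autophagy receptor Nbr1 152 bp apart, had folds of 6.0 and 7.58 in Homo 1 and Homo 3, 6.20, 5.94 and 4.95 in Het 1 to 3, and 5.31, 6.59, 6.02 and 8.94 in WT 1 to 4. Mcm4/Prkdc (chr16:15637245-15638002), with a replicative helicase subunit and the kinase of end joining, had 12.9 in Homo 3, 8.25 in Het 1, and 9.39, 6.10, 6.85 and 7.96 in WT 1 to 4. Hspd1/Hspe1 (chr1:55087631-55088595), with the mitochondrial chaperonins Hsp60 and Hsp10, had 6.88 and 7.80 in Homo 2 and Homo 3, 6.56 and 5.64 in Het 1 and Het 2, and 7.32, 6.18, 7.58 and 5.87 in WT 1 to 4. Values of the 3 groups overlapped at Brca1/Nbr1 and Hspd1/Hspe1, and Homo 3 stood above every other library at Mcm4/Prkdc. Homo 3 also had the highest median fold over the shared regions it called, 7.28. Other pairs were Mrps12/Sars2, Ppat/Paics, Psmb9/Tap1 and Gart/Son, which had 2 regions.

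Shared regions held many genes of mitochondria. A gene can lie at a shared region only if it has a gene-end region at all, which 9215 of 21627 protein-coding genes had, and 27.6% of those 9215, or 11.7% of all genes, lay at a shared one. Of 78 mitochondrial ribosomal protein genes 33 lay at one (42.3%), as did 40 of 108 genes of oxidative phosphorylation (37.0%) and 13 of 33 genes of mitochondrial tRNA synthetases, iron-sulfur assembly and LYR proteins, with Htd2 (39.4%). Among genes of these lists with a gene-end region, the shares were 48.5%, 44.4% and 41.9%. The WT-but-no-Het pattern held 3 of 34 mitochondrial ribosome regions, 0 of 40 oxidative phosphorylation regions and 2 of 13 regions of the last list, beside 81 of 1322. Mrpl47/Ndufb5, which joins a ribosomal protein to a subunit of complex I, was called in 9 libraries with a median fold of 7.55. Mrpl48/Rab6a and Gga3/Mrps7 were also called in 9, at 7.47 and 7.50. Homo libraries called a mean of 49.02% of the mitochondrial ribosome regions, Het libraries 41.2% and WT libraries 86.8%. These are near the 48.2%, 45.4% and 83.6% of all shared regions.

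Genes of DNA replication and repair lay at shared regions in 39 of 106 cases (36.8%), or 39.8% of those with a gene-end region, with a median fold of 7.03. Among them Pinlyp/Xrcc1, with a scaffold of single-strand break repair, and Polh/Xpo5, with the DNA polymerase that bypasses ultraviolet lesions, were called in 9 libraries at 7.91 and 7.35. The pattern of all WT and no Het held 2 of these 39 regions, beside 81 of all 1322 shared regions. Genes of cytosolic tRNA synthetases, tRNA modification and RNase P lay at one in 26 of 70 cases (37.1%), and ribosome biogenesis and RNA polymerase genes in 33 of 91 (36.3%). Among those with a gene-end region the shares were 46.4% and 38.8%. Polr3c/Rnf115, with a subunit of RNA polymerase III and a ubiquitin ligase, was called in 9 libraries at a median fold of 8.60. 

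Cytosolic ribosomal protein genes lay at 20 shared regions, 18 of 84 genes (21.4%), or 24% of those with a gene-end region. Of those 20 regions, 5 (25%) were called in all WT and no Het library and 1 in all WT and no Homo library, beside 6.13% and 0.303% of all shared regions. Het libraries called a mean of 30% of the 20 regions, beside 45.4% of all shared regions, while Homo libraries called 48.3% and WT libraries 86.3%. At equal depth, 0 of the 5 were still called in all 4 WT libraries, beside 12 of the 81. The list is short, and this count was not tested. Card6/Rpl37 and Rps27/Rab13, the most often called, were found in 9 libraries at median folds of 7.41 and 7.14, and Zc3h10/Rpl41, the highest by rank percentile of several called in 8, had a median fold of 6.40.

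Of 76 histone genes 44 lay at a shared region (57.9%), or 69.8% of those with a gene-end region, in 27 regions. In 23 of the 27 every gene was a histone gene, and 9 of the 21 regions with strand read were divergent. Their median fold was 5.30, below the 6.48 of all shared regions. All 4 WT libraries called 11 of the 27, beside 821 of all 1322 shared regions (62.1%). H2bc23/H2ac23 and H4c18/H2ac24 were each called in 9 libraries at 5.36 and 5.28, and Dpagt1/H2ax, which joins the DNA damage variant H2A.X to an enzyme of N-glycosylation, in 9 libraries at 7.52. Histone genes of a cluster are near-identical copies, and the filters on reads that map to several places are not given, so calls there are uncertain.

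Between 20.1% and 29.6% of the genes of splicing, cilia, vesicle traffic and the proteasome lay at shared regions. Of splicing genes 18 of 62 (29.0%) did so, of cilium and centrosome genes 24 of 81 (29.6%), of vesicle traffic genes 41 of 204 (20.1%), and of genes with proteasome symbols 12 of 51 (23.5%). Among those with a gene-end region the shares were 30.5%, 33.3%, 24.7% and 30.8%, beside 27.6% of all genes with one. Rpgrip1l/Fto, of which Rpgrip1l acts at the ciliary transition zone, was called in 9 libraries at 8.16, as was Rab2b/Tox4, with a small GTPase of membrane traffic, at 8.43. Zfp zinc finger genes lay there in 38 of 397 cases (9.57%), or 16.7% of those with a gene-end region, with Zfp142/Bcs1l in 9 libraries at 8.94. Ftsj3/Psmc5, with a proteasomal ATPase, was called in 7 libraries at 7.35.

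Of 29 SWI/SNF subunit genes, 7 lay at a shared region (24.1%), in 8 regions, and Arid1a was not among them. That was 26.9% of the SWI/SNF genes with a gene-end region, beside 27.6% of all genes with one. Smarcd2/Tcam1 and Ss18l1/Mtg2 were called in 8 libraries at 7.04 and 6.53, and Trip13/Brd9 in 6 at 7.08. One of the 8, Asic1/Smarcd1, was called in all WT and no Het library. Of liver secretion and metabolism genes 4 of 67 (5.97%) lay there, or 11.4% of those with a gene-end region, in 5 regions. They included Tomm40l/Apoa2, with an apolipoprotein of HDL, called in 7 libraries at 7.66, Chd1l/Fmo5 in 7 at 5.82, and 2 regions of Foxa3/Sympk. None of the 5 showed the pattern of all WT and no Het, or of all WT and no Homo, beside 81 and 4 of all 1322. The gene lists describe which genes share regions, and no list was tested against the others.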

How the data were processed

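ATAC-seq was measured in 10 tumour libraries, grouped by sample title. The submitters' processing notes name the build mm10 and the tools Bowtie2, MACS2 and deepTools, without versions. Not given in the sources used here are the settings, the duplicate and multi-mapping filters and the Tn5 shift, which could move peak edges and calls. Each deposited peak carries a score (10 times −log10 p cut to a whole number), a fold, which is a ratio of summit pileup plus 1 to local background plus 1, and −log10 p and −log10 q values, all as the authors' peak caller wrote them. These values were used to describe, rank and thin peaks within a list. Folds at single regions were also set side by side across lists, without rescaling for depth or for the median fold of a list.

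Touching rows were merged per list and the 10 lists pooled, on chromosomes 1 to 19 and X, with an overlap of at least 1 bp. Gene ends came from RefSeq (GRCm38.p6, 21627 protein-coding genes), whose table lists no exons or UTRs, and strand and promoters from the RefSeq promoter table. Depth was recovered as the smallest Poisson background shared by at least 10 rows, from whole-number pileups found for 100% of rows within a tolerance of 0.001. The window this background refers to is not given, so depths are on 1 scale only if it was the same in each library. The peak lists give no number of reads. Thinning to equal depth used 1 seeded draw and a −log10 p of at least 5. The rank percentile of a region is the percent of the list's regions with a lower −log10 p. Counts per library were compared by two-sided exact permutation of labels, adjusted over 3 comparisons. Steps were tested on simulated data. Alternatives were another peak threshold, overlap, depth, list length, gene-end window and gene table, each replicate left out, and a replicate block.

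Shared regions, gene lists and tests were chosen with earlier results of these data known. Named were up to 8 regions per pattern by rank percentile, the 8 of highest fold, the 5 widest, textbook pairs and up to 3 per list called in most libraries. Python packages were numpy 2.4.6, pandas 2.3.3, scipy 1.17.1 and matplotlib 3.10.9. A few regions that the rule selects are not reported here.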

Additional observations from a re-analysis of the deposited data

Results flagged for a closer look

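The divergent share was taken over the regions called in each library, without the pairs whose strand was not read but with the regions that join 3 genes. It was 76.8% in WT 3, against 73.5% to 73.9% in the other WT libraries. The gap of WT 3 to the nearest of them, divided by the range of the 4 WT values, passed Dixon's 95% critical value. The share was 70.5% to 78.6% in Homo and 75.6%, 74.8% and 78.1% in Het 1 to 3, so WT 3 lay inside the range of both. Chance alone marks about 1 in 20 groups in this way.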

How the results depend on the processing

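Of the values recomputed for the group comparisons and patterns, 126 kept their direction and side of the threshold or stayed within 1.5 times, 37 moved further and 10 changed sign. The count differences of Homo minus WT and Het minus WT stayed below 0 under each alternative run. The cause of a change was not tested unless the setting itself gives it. Homo minus Het in counts became −98 at equal depth. The share of Homo minus WT became −0.377 points at a −log10 p of at least 10, −0.142 at equal depth, −1.65 with equal numbers of the strongest peaks and −2.33 where 50% of the region had to be overlapped, a setting added after seeing the data because the planned overlap (50% of the peak or of the region) is met by each peak by construction and gave the same values. The share of Het minus WT became −1.79 with equal numbers and −0.524 with the region overlap, and that of Homo minus Het became 0.143 with equal numbers. With each replicate left out, counts ranged from −774 to −239 for Homo minus WT, −613 to −353 for Het minus WT and −268 to 267 for Homo minus Het, and shares from 0.0634 to 0.750, 0.426 to 1.49 and −1.13 to −0.0666 points.

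At equal depth, with equal numbers and with the region overlap, the count of all WT and no Homo was 22, 2 and 11, and that of all WT and no Het 18, 9 and 136. All WT and no Het or Homo gave 4 at the higher −log10 p, 5 at equal depth, 1 with a window of 500 bp and 4 with the region overlap. All Homo and no WT gave 1 at equal depth and 1 with equal numbers, all Het and no WT 3 and 7, and all Het and no Homo 15 and 10. All Homo and no Het gave 3 at equal depth and 0 with the region overlap. Left-out replicates gave 4 to 380 for all WT and no Homo, 86 to 210 for all WT and no Het, 2 to 61 for all WT and no Het or Homo, 0 to 4 for all Homo and no WT, 0 to 1 for all Het and no WT, 5 to 47 for all Homo and no Het and 0 to 51 for all Het and no Homo. Of the values for single named regions, 51 moved and 25 did not. None could change sign, since the alternatives run on them only remove calls and 1 group of each comparison had none to begin with.

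The replicate numbers did not pair the libraries: deviations from the group means of same-numbered libraries correlated between −0.134 and 0.0119 over 9 pairs, none over 0.1. With the number as a replicate block, the count differences were −457 for Homo minus WT, −494 for Het minus WT and 37 for Homo minus Het, and the share differences 0.351, 1.01 and −0.662 points. The smallest p of that exact test is 0.25, so it says nothing of stability. Depth differed 3.76-fold between the deepest and the shallowest list, so a missing call in Homo 2 or a Het list says less than one in a WT list.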
